A study of Mus musculus with 4 samples.

Results

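The diet response of exosomal miRNAs was compared between visceral white adipose tissue (vWAT) and brown adipose tissue (BAT), that is, how far the step from a low-fat diet (LFD) to a high-fat diet (HFD) moved each miRNA in vWAT-derived exosomes (vWAT-Exos) and how far it moved the same miRNA in BAT-derived exosomes (BAT-Exos). The miRNAs described are the 320 distinct mouse-named sequences with a normalized value of at least 100 in at least 1 library, out of 697 mouse-named sequences and 1482 sequences of any name. All 4 groups came from wild-type C57BL/6 (B6) mice, which the labels give as 6 weeks of age with 4 months on LFD or HFD, and no transgene or drug entered these groups. Pieces of each depot were kept in medium, and exosomes, the small vesicles that cells release, were pelleted from that medium by ultracentrifugation. There were 4 libraries, 1 for each diet and depot, so no value has a replicate error, no difference was tested, and diet cannot be told apart from differences between single preparations. Vesicles from explants come from every cell type of the depot, and fewer vesicles of one type cannot be told apart from less miRNA in each vesicle.

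A miRNA is cut from a hairpin precursor, whose 2 arms give a 5p and a 3p strand, and the strand that is loaded into an Argonaute protein silences mRNAs that pair with it. Bases 2 to 8 of the strand, the seed, carry most of the target choice, so miRNAs with the same seed form families that share targets. White fat stores lipid, while brown fat burns it for heat and shares a developmental lineage with skeletal muscle. The diet response of a miRNA is given here as log2((HFD + 1)/(LFD + 1)) within a depot, and the difference as the response in vWAT-Exos less the one in BAT-Exos. A positive difference therefore also means that the ratio of vWAT-Exos to BAT-Exos was greater on HFD than on LFD. Where a miRNA "went from" one value "to" another, these are the values of the LFD and the HFD library of that depot. Responses, differences and their intervals are on this log2 scale, and all other values are normalized values as deposited.

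Some miRNAs known from brown or white fat differed widely between the depots on both diets. miR-378a-3p, which lies within the brown fat gene Ppargc1b, had 71290.4 and 113025 in LFD and HFD vWAT-Exos against 2108530 and 2080470 in BAT-Exos. miR-196a-5p, which 2 loci in the Hox clusters encode and which is known from white fat, had 1392 and 1436 in the vWAT-Exos libraries, against 4.13 and 4.94 in the BAT-Exos libraries. The 697 mouse-named sequences summed to between 2552940 and 5630160 per library, which stands for approximately 1182350 to 7979000 reads, the fewest in HFD vWAT-Exos. A value of 0 was read as fewer than 5 approximate reads, a bound of 6.81 (LFD) and 11.8 (HFD) for vWAT-Exos and of 4.13 (LFD) and 3.53 (HFD) for BAT-Exos, because smaller values were rarely listed. Intervals below are 95% intervals for the counting error of these approximate reads and hold no variation between mice. Scaling each library to its total moved the vWAT response by a median of -0.13 (range -0.57 to 0.00) on the log2 scale and the difference by a median of -0.09 (-0.55 to 0.05), with the larger shifts at low values, and median-of-ratios scaling moved the difference by a median of 0.07.

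The mature sequences of the miRNAs that carry the pattern are printed 5′ to 3′ as RefSeq gives them for GRCm38.p6, with the seed in capitals. The first 5 form the miR-200 family, which holds the opposite responses in one direction.
miR-200b-3p: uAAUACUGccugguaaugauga
miR-200c-3p: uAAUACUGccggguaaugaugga
miR-429-3p: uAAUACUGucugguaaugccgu
miR-200a-3p: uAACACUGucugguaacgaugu
miR-141-3p: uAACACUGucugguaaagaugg
The next 5 are of striated muscle or of the miR-129 hairpins and had higher values on HFD in BAT-Exos.
miR-208b-3p: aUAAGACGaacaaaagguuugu
miR-499-5p: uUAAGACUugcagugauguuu
miR-133b-3p: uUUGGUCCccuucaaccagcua
miR-206-3p: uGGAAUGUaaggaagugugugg
miR-129-2-3p: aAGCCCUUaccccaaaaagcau
The next 4 moved in vWAT-Exos with little change in BAT-Exos, the first pair upward and the second downward.
miR-335-5p: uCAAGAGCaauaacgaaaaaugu
miR-708-5p: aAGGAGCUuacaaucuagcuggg
miR-351-5p: uCCCUGAGgagcccuuugagccug
miR-125a-5p: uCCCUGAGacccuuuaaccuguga
The last 7 are for responses seen in BAT-Exos alone and for the 2 strands of let-7.
miR-181a-1-3p: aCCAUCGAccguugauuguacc
miR-144-3p: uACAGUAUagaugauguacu
miR-205-5p: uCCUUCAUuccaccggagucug
miR-379-5p: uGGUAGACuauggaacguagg
miR-411-5p: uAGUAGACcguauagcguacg
let-7g-5p: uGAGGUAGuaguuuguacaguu
let-7f-1-3p: cUAUACAAucuauugccuuccc
Of the 320 miRNAs, 270 matched a RefSeq entry and 244 of these lie at a single locus. Counted from the 5′ end, the seed of miR-200a-3p and miR-141-3p differs from that of miR-200b-3p, miR-200c-3p and miR-429-3p by U4C. The seed of miR-499-5p differs from that of miR-208b-3p by G8U, and that of miR-411-5p from that of miR-379-5p by G2A.

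The diet responses of the 2 depots showed little relation. Over the 320 miRNAs the response in vWAT-Exos and the response in BAT-Exos had a Pearson correlation of -0.07 and a Spearman correlation of 0.02, a description across miRNAs, which are not independent of each other. The signs were the same in 160 miRNAs and opposite in 155 (48.4%), and 5 had a response of 0 in a depot. At least 2-fold higher values on HFD were seen for 17 miRNAs (5.31%) in vWAT-Exos and 22 (6.88%) in BAT-Exos, and at least 2-fold lower values for 26 (8.12%) and 47 (14.7%). The responses in BAT-Exos were the wider, with an SD over miRNAs of 1.06 against 0.94 in vWAT-Exos, and they were the larger in absolute size for 183 miRNAs (57.2%). The difference of the responses had a median of -0.05, an interquartile range of -0.69 to 0.69 and extremes of -8.75 and 8.02. It reached 2-fold for 110 miRNAs (34.4%), upward for 59 (18.4%) and downward for 51 (15.9%), and 4-fold for 32.

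**Figure D1:**
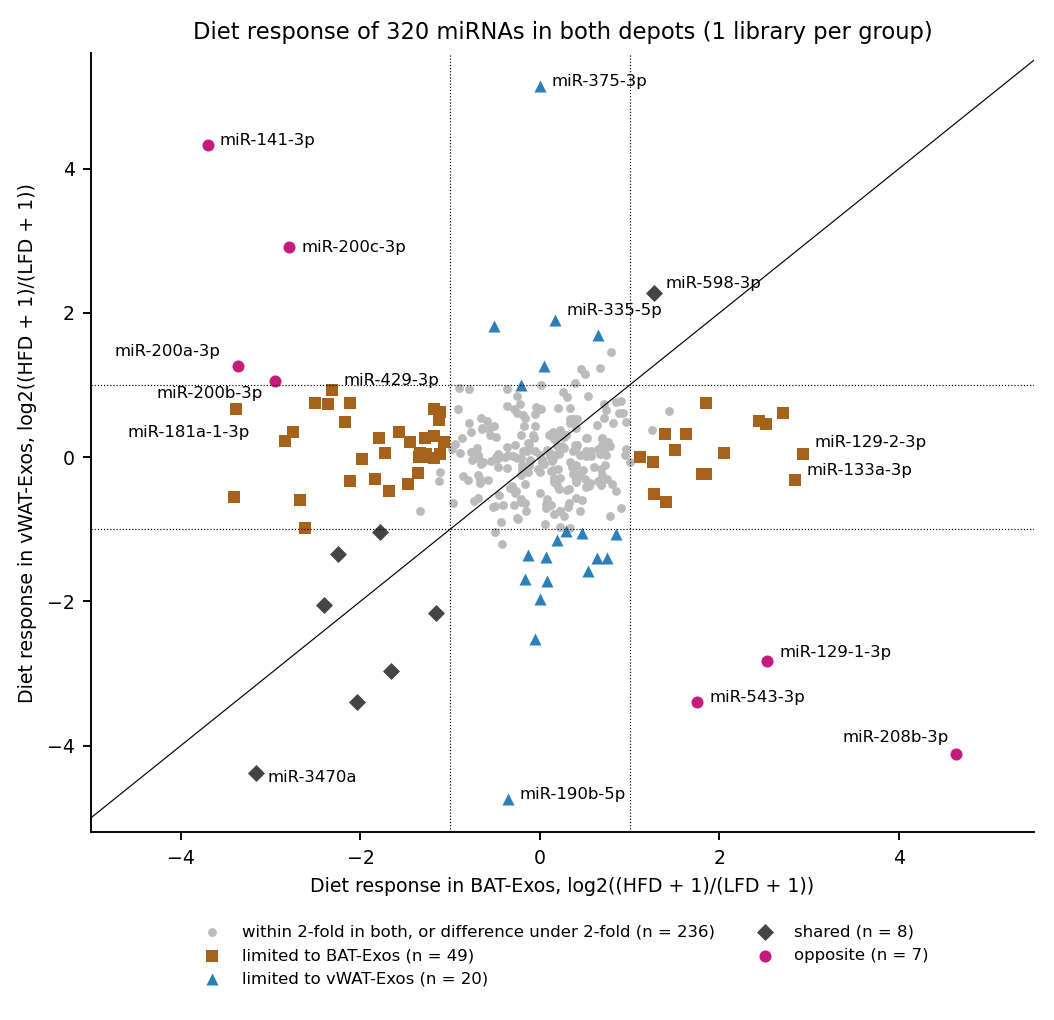
Diet response of each of the 320 miRNAs in BAT-Exos (x axis) and vWAT-Exos (y axis), both as log2((HFD + 1)/(LFD + 1)) with 1 library per group, coloured by class. The dotted lines mark 2-fold and the diagonal marks equal responses. The points form a cross along the axes, with 49 responses limited to BAT-Exos and 20 to vWAT-Exos, while 7 lie in the corners of opposite responses.

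The responses were sorted by size in each depot. Opposite responses, at least 2-fold up in one depot and at least 2-fold down in the other, numbered 7 (2.19%), and shared responses, at least 2-fold the same way in both, numbered 8 (2.5%). Responses limited to a depot were at least 2-fold there, under 2-fold in the other, and differed by at least 2-fold between the depots. They numbered 20 (6.25%) for vWAT-Exos and 49 (15.3%) for BAT-Exos. A further 13 miRNAs (4.06%) passed 2-fold in 1 depot with a difference under 2-fold, and 223 (69.7%) stayed within 2-fold in both. Those 223 held between 90.7% and 97.5% of the summed values of the 320 in each library, and the 10 miRNAs with the highest mean value were all among them, with differences from -0.59 to 0.87. The opposite responses held at most 0.16% of a library.

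The miR-200 family was higher on HFD in vWAT-Exos and lower on HFD in BAT-Exos. These 5 miRNAs are made in epithelial cells, where they hold back ZEB1 and ZEB2, the repressors of E-cadherin. Their precursors lie in 2 clusters, miR-429, miR-200a and miR-200b within chr4:156053916-156055706, in introns or exons of the transcript Gm13648 inside Ttll10, and miR-141 and miR-200c within chr6:124717917-124718346 (both minus strand, GRCm38). Of 7 listed sequences of the family, the 5 3p strands reached 100. All 5 had higher values on HFD in vWAT-Exos, as had 164 of all 320, with a median response of 1.27 against 0.02 over all 320. There 4 of the 5 were at least 2-fold higher, where 5.31% of the 320 were. With libraries scaled to their totals, 3 of the 5 were. Of the 5, miR-141-3p reached 100 only in HFD vWAT-Exos, so its higher value there was fixed by the minimum. All 5 were at least 2-fold lower in BAT-Exos, where 14.7% of the 320 were, with a median response of -2.95 against 0.05 over all 320. With 4 of them as opposite responses, the family made up that whole class (1.25% of the 320). Both clusters and both seeds took part.

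miR-200b-3p went from 742 to 1538 in vWAT-Exos and from 1193 to 153 in BAT-Exos. miR-200a-3p went from 805 to 1936 in vWAT-Exos and from 869 to 83.3 in BAT-Exos. On LFD both miRNAs were near each other in the 2 depots, and on HFD the vWAT-Exos library was far above the BAT-Exos library. The difference of responses was 4.00 (interval 3.74 to 4.27) for miR-200b-3p and 4.63 (4.32 to 4.95) for miR-200a-3p. The response of miR-200b-3p in vWAT-Exos, 1.05, lies close to 2-fold and was 0.92 when libraries were scaled to their totals.

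The chromosome 6 members differed by more, from lower values. miR-200c-3p went from 94.0 to 716 in vWAT-Exos and from 294 to 41.6 in BAT-Exos, a difference of 5.71 (5.16 to 6.26). miR-141-3p went from 13.6 to 291 in vWAT-Exos and from 66.9 to 4.23 in BAT-Exos, a difference of 8.02 (6.50 to 9.53) that rests on approximately 10 reads in LFD vWAT-Exos and 6 in HFD BAT-Exos. miR-429-3p went from 81.7 to 156 in vWAT-Exos and from 226 to 44.5 in BAT-Exos, and with a vWAT response of 0.93 it fell short of 2-fold and counts as limited to BAT-Exos. In these 3 the order of the depots turned, with at least 2-fold more in BAT-Exos on LFD and at least 2-fold more in vWAT-Exos on HFD.

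Other epithelial miRNAs moved less uniformly beside them. miR-375-3p, a miRNA of endocrine and secretory epithelium, had 8.17 and 325 in vWAT-Exos and was listed at 0 in both BAT-Exos libraries. miR-205-5p, of basal epithelium, went from 252 to 322 in vWAT-Exos and from 2631 to 389.5 in BAT-Exos, a difference of 3.11 (2.76 to 3.45). miR-31-5p had responses of -0.47 and -1.68 in vWAT-Exos and BAT-Exos, and miR-203-3p, a miRNA of skin, had responses of 0.26 and 0.69. Of these 4, only miR-375-3p was at least 2-fold up in vWAT-Exos, where 5.31% of the 320 were. In BAT-Exos 2 of the 4 were at least 2-fold down, where 14.7% were. Their summed values went from 2167 to 2867 in vWAT-Exos and from 6038 to 5694 in BAT-Exos. The cluster of miR-183-5p, miR-96-5p and miR-182-5p, shared by sensory and epithelial cells, was higher on HFD in both depots, with median responses of 1.46 in vWAT-Exos and 0.65 in BAT-Exos, and so did not take the opposite course. How far epithelial vesicles enter the miR-200 values was not tested.

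The 3 opposite responses in the other direction (0.938%) were miR-208b-3p, miR-129-1-3p and miR-543-3p, and each rested on a 0 in HFD vWAT-Exos. miR-208b-3p, which lies in an intron of the slow myosin gene Myh7, went from 16.3 to 0 in vWAT-Exos and from 7.43 to 208 in BAT-Exos, the lowest difference of all at -8.75. miR-129-1-3p went from 6.13 to 0 in vWAT-Exos and from 153 to 892 in BAT-Exos. miR-543-3p, of the Dlk1-Dio3 cluster, went from 9.53 to 0 in vWAT-Exos and from 37.1 to 128 in BAT-Exos. With the 0 set to its bound of 5 approximate reads, their vWAT responses became -0.43, 0.85 and 0.29, and all 3 counted as limited to BAT-Exos, with differences of -5.07, -1.68 and -1.47. In BAT-Exos, miR-208b-3p rests on approximately 9 reads on LFD and 295 on HFD. Both miR-208b-3p and miR-543-3p reached the minimum for inclusion only in HFD BAT-Exos, so their higher values there were fixed by that minimum. In vWAT-Exos, miR-129-1-3p was under the bound on both diets and no fold can be given.

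**Figure D2:**
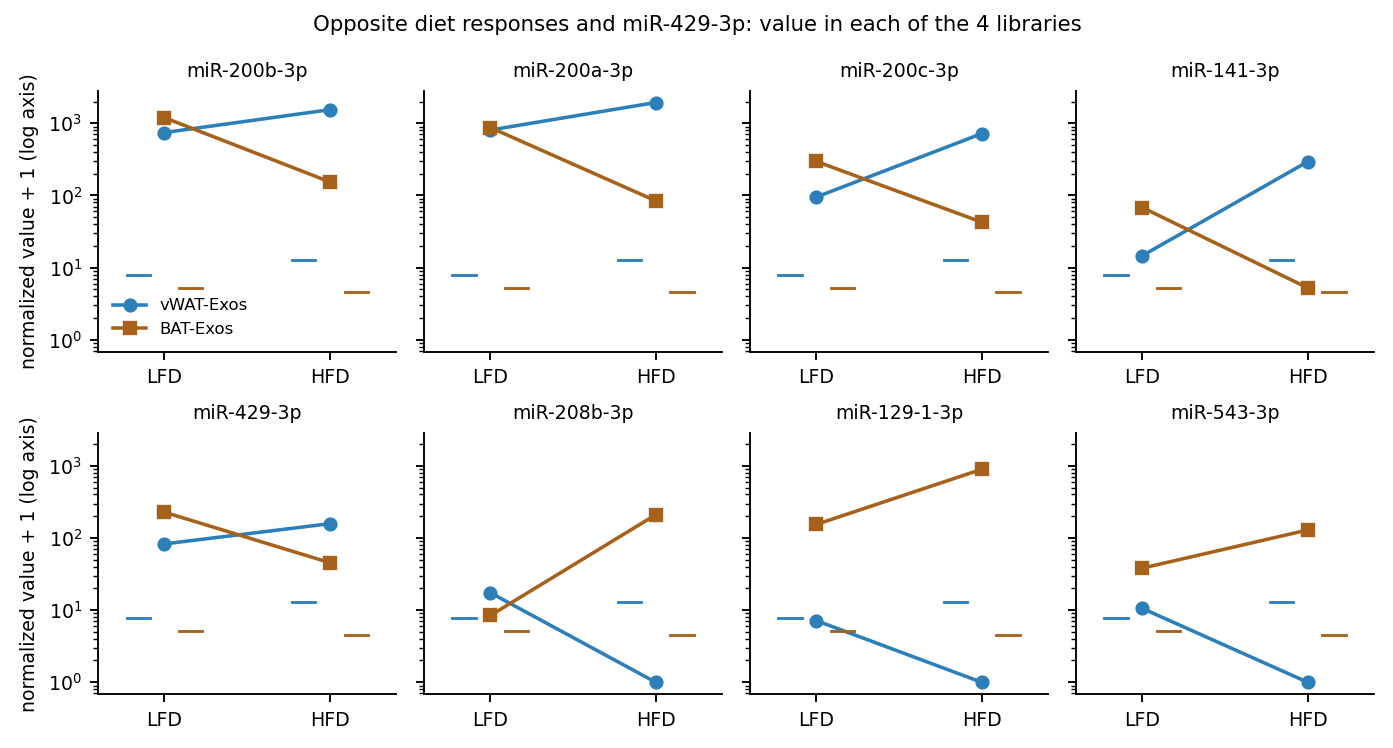
Normalized value + 1 (log axis) of the 7 miRNAs with opposite diet responses and of miR-429-3p in the 4 libraries, with vWAT-Exos as circles and BAT-Exos as squares, 1 library per point. Short bars mark 5 approximate reads. The lines of the miR-200 family cross or part from near each other between LFD and HFD, and the vWAT-Exos points of miR-208b-3p, miR-129-1-3p and miR-543-3p lie near or under the bars.

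The miRNAs of striated muscle were higher on HFD in BAT-Exos and near level in vWAT-Exos. Of 7 listed, 6 reached 100, all 6 were at least 2-fold higher in BAT-Exos, where 6.88% of the 320 were, and their median response was 2.61 there against -0.09 in vWAT-Exos. miR-208b-3p reached 100 only in HFD BAT-Exos, so its higher value there was fixed by the minimum. miR-133a-3p, which restrains Prdm16 in brown and muscle precursors, went from 490.0 to 392 in vWAT-Exos and from 1829 to 13086.5 in BAT-Exos, a difference of -3.16 (-3.43 to -2.89). miR-1a-3p, its partner in both heart and skeletal muscle, went from 775 to 661 in vWAT-Exos and from 1383 to 4968 in BAT-Exos. miR-206-3p, found in skeletal muscle and not in heart, went from 169 to 175 in vWAT-Exos and from 657 to 2729 in BAT-Exos. miR-133b-3p, its neighbour within chr1:20679055-20682855, went from 74.0 to 102 in vWAT-Exos and from 169.8 to 975 in BAT-Exos.

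The miRNAs of the myosin genes followed. miR-499-5p, in an intron of Myh7b, went from 35.4 to 54.5 in vWAT-Exos and from 147 to 966 in BAT-Exos, a difference of -2.10 (-2.94 to -1.26). Its seed differs by 1 base from that of miR-208b-3p. The summed values of the muscle list went from 1560 to 1385 in vWAT-Exos and from 4193 to 22933 in BAT-Exos. In BAT-Exos on HFD every listed member that reached 100 was above every value of that member in the other 3 libraries. For miR-208b-3p the minimum of 100 fixed this in advance. The list is defined by muscle fibres, and whether muscle tissue was taken with the brown fat was not tested.

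Beyond the muscle list, strands of the miR-129 hairpins were also higher on HFD in BAT-Exos. miR-129-2-3p, best known from brain, went from 98.7 to 102 in vWAT-Exos and from 769 to 5851 in BAT-Exos, a difference of -2.88 (-3.43 to -2.33). miR-129-5p, which 2 loci encode, went from 81.0 to 68.7 in vWAT-Exos and from 607 to 2130.3 in BAT-Exos. The 3 strands of these hairpins summed to 186 (LFD) and 171 (HFD) in vWAT-Exos, and to 1529 (LFD) and 8873 (HFD) in BAT-Exos. Of the 16 miRNAs limited to BAT-Exos upward (5%), the others included miR-615-3p of the HoxC cluster, with 411 (LFD) and 268 (HFD) in vWAT-Exos and 213 (LFD) and 567 (HFD) in BAT-Exos. miR-29b-3p, a repressor of collagen genes, went from 1362 to 1699.6 in vWAT-Exos and from 975 to 2555 in BAT-Exos.

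The responses limited to vWAT-Exos upward numbered 6 (1.88%). miR-335-5p, in an intron of the imprinted Mest, a gene that marks the growth of fat cells, went from 10952 to 40820.2 in vWAT-Exos and from 3749 to 4206 in BAT-Exos. Its difference of 1.73 (1.66 to 1.80) was the highest among the 62 miRNAs that reached 10000 in a library. miR-708-5p, in an intron of Tenm4, went from 2205 to 7773 in vWAT-Exos and from 3579 to 2515 in BAT-Exos, a difference of 2.33 (2.22 to 2.43). The BAT-Exos values of both lay within 2-fold of each other across the diets.

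The other 4 were lower in level. miR-375-3p, described above, had a vWAT response of 5.15 from approximately 6 reads on LFD. miR-182-5p went from 159 to 519 in vWAT-Exos and from 2175 to 3417 in BAT-Exos, and its difference of 1.05 (0.71 to 1.38) lay at the 2-fold line. miR-152-5p went from 66.7 to 161 in vWAT-Exos and from 111 to 115 in BAT-Exos. miR-503-5p, which slows the cell cycle, went from 95.3 to 192 in vWAT-Exos and from 419 to 363 in BAT-Exos, with a vWAT response that was 0.87 when libraries were scaled to their totals.

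The responses limited to vWAT-Exos downward numbered 14 (4.38%) and held 2 members of the miR-125 family. The family targets genes of differentiation and apoptosis, and its 3 members share the seed CCCUGAG. miR-125a-5p went from 11189 to 4353 in vWAT-Exos and from 22566 to 20556 in BAT-Exos, a difference of -1.23 (-1.30 to -1.15). miR-351-5p, encoded on chromosome X, went from 181 to 30.8 in vWAT-Exos and from 1947 to 1868 in BAT-Exos, a difference of -2.46 (-3.28 to -1.63). miR-125b-5p was lower on HFD in both depots, with 34949 (LFD) and 17043 (HFD) in vWAT-Exos and 28626 (LFD) and 20266 (HFD) in BAT-Exos, so that its difference was -0.54 (-0.58 to -0.49) and under 2-fold. All 3 were at least 2-fold lower in vWAT-Exos, where 8.12% of the 320 were, and none in BAT-Exos, where 14.7% were, though for miR-125b-5p the response of -1.04 lies close to the line and was -0.99 under median-of-ratios scaling.

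miR-455-3p, which has been tied to brown fat differentiation and lies in Col27a1, went from 291 to 130.3 in vWAT-Exos and from 721 to 819 in BAT-Exos, a difference of -1.34 (-1.79 to -0.89). miR-132-3p, an activity-induced miRNA, went from 1226 to 588 in vWAT-Exos and from 778 to 1073 in BAT-Exos. miR-33-5p, which lies in a sterol regulator gene and limits cholesterol export, went from 218 to 107 in vWAT-Exos and from 42.1 to 51.5 in BAT-Exos. Each of the 3 was lower on HFD in vWAT-Exos and somewhat higher in BAT-Exos.

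The largest differences among these 14 had few reads. miR-190b-5p went from 25.9 to 0 in vWAT-Exos and from 129 to 100.2 in BAT-Exos, and its difference of -4.39 became -0.71 with the 0 at its bound, under 2-fold. miR-188-5p, in an intron of Clcn5, went from 102 to 37.9 in vWAT-Exos and from 47.0 to 79.7 in BAT-Exos, and it turned from at least 2-fold more in vWAT-Exos on LFD to at least 2-fold more in BAT-Exos on HFD. miR-208b-3p was the other of 2 miRNAs to turn that way. miR-8114, which overlaps an exon of the glutamine synthetase gene Glul, went from 101 to 33.2 in vWAT-Exos and from 210.5 to 305 in BAT-Exos. miR-1964-3p went from 51.7 to 19.0 in vWAT-Exos and from 69.3 to 108 in BAT-Exos. miR-196a-2-3p, the passenger strand of miR-196a in Hoxc5, had 151 and 37.9 in vWAT-Exos and was listed at 0 in both BAT-Exos libraries, while its partner miR-196a-5p stayed level. Both miR-188-5p and miR-196a-2-3p reached 100 only in LFD vWAT-Exos, so their lower values on HFD there were fixed by the minimum. miR-1964-3p reached 100 only in HFD BAT-Exos, which fixed its higher value there.

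The responses limited to BAT-Exos downward were the largest of these classes, with 33 miRNAs (10.3%). miR-181a-1-3p had the largest difference in it, 4.06 (2.94 to 5.17), with 161 (LFD) and 256 (HFD) in vWAT-Exos and 68.5 (LFD) and 5.64 (HFD) in BAT-Exos. miR-429-3p and miR-205-5p, given above, also belonged to this class. Both strands of miR-144, which red blood cell precursors make, were also there. miR-144-3p went from 688 to 1154 in vWAT-Exos and from 808 to 142 in BAT-Exos, and miR-144-5p went from 108 to 180.1 in vWAT-Exos and from 196 to 37.4 in BAT-Exos. The differences of the 2 strands were 3.25 (2.96 to 3.53) and 3.10 (2.48 to 3.73).

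miR-451a, whose hairpin lies next to miR-144 within chr11:78073010-78073207, did not share this response. It went from 2627 to 3796 in vWAT-Exos and from 10739 to 13822 in BAT-Exos, a difference of 0.17. miR-486b-5p, the other abundant red cell miRNA, had a difference of 0.20. Of the 4 erythroid miRNAs, the 2 strands of the miR-144 hairpin were at least 2-fold lower in BAT-Exos, where 14.7% of the 320 were, and the other two were within 2-fold, with summed values of 21849 and 26761 in BAT-Exos.

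Leukocyte miRNAs split in a similar way. miR-142a-3p, made in blood-forming cells, went from 7920.4 to 5247 in vWAT-Exos and from 428 to 66.3 in BAT-Exos, a difference of 2.08 (1.75 to 2.40). Its other strand miR-142a-5p went from 20409 to 25079 in vWAT-Exos and from 1469 to 649.9 in BAT-Exos, a difference of 1.47 (1.35 to 1.59). miR-150-5p of lymphocytes and miR-223-3p of myeloid cells had BAT responses of 0.16 and -0.76, and miR-342-3p had 0.73. Of the 5, the 2 strands of miR-142a were at least 2-fold lower in BAT-Exos (14.7% of the 320 were) and none in vWAT-Exos (8.12% were), where the list summed to 41888 and 45807.

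Several abundant miRNAs belonged to the class limited to BAT-Exos downward. let-7g-5p went from 70563 to 101186 in vWAT-Exos and from 43231 to 19754 in BAT-Exos, a difference of 1.65 (1.62 to 1.68). The entry that carried the names miR-199a-5p and miR-199b-5p, strands of stromal cells, went from 15354 to 17726 in vWAT-Exos and from 8333 to 3059 in BAT-Exos. Its RefSeq match was miR-199a-5p. miR-146b-5p, a brake on NF-kappaB signalling, went from 4218 to 3422 in vWAT-Exos and from 1929.8 to 541 in BAT-Exos. Its seed partner miR-146a-5p went from 27037 to 24423 in vWAT-Exos and from 19982 to 15455 in BAT-Exos. The differences of the pair were 1.53 (1.38 to 1.68) and 0.22 (0.18 to 0.27), with the same seed and unequal responses.

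Shared responses were few and most came from repeat-like sequences. Upward there was 1 (0.312%), miR-598-3p, with 16.3 (LFD) and 82.9 (HFD) in vWAT-Exos and 45.4 (LFD) and 111 (HFD) in BAT-Exos. It reached the minimum for inclusion only in HFD BAT-Exos, so its higher value there was fixed by that minimum. Downward there were 7 (2.19%), of which 6 were miR-709, miR-3470a, miR-3470b and the other strands listed for the hairpins of miR-3470a, miR-3470b and miR-3535. miR-3470b went from 34.7 to 13.0 in vWAT-Exos and from 904 to 189 in BAT-Exos, and the other strand listed for its hairpin, mir-3470b-p3, went from 72.2 to 16.6 in vWAT-Exos and from 2360.2 to 443 in BAT-Exos. miR-3470a and miR-3470b shared a run of 17 bases, and miR-709 held a run of 14 bases of mir-3470a-p3 on the opposite strand and 13 of mir-3470b-p3. The sequences shared downward had a median GC content of 60.9% against 47.6% over all 320.

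For 3 of these 7, miR-709, miR-3470a and mir-3470a-p3, the shared direction rests on a 0 in HFD vWAT-Exos. With the 0 at its bound they counted as limited to BAT-Exos, and 4 of the 7 stayed shared. miR-690 was the member with the most even values, 158 (LFD) and 75.8 (HFD) in vWAT-Exos and 82.5 (LFD) and 23.3 (HFD) in BAT-Exos, with a vWAT response of -1.04 at the 2-fold line.

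The 2 strands of let-7 hairpins took opposite courses. The let-7 family holds back growth and keeps cells differentiated, mostly through its 5p strands with the seed GAGGUAG. All 9 of its 5p strands, miR-98-5p included, had higher values on HFD in vWAT-Exos and lower values in BAT-Exos, with median responses of 0.38 and -0.77. Over all 320, 164 were higher in vWAT-Exos and 151 lower in BAT-Exos. With libraries scaled to their totals, 8 of the 9 were higher in vWAT-Exos. The let-7c-5p entry also matched let-7a-5p, so these names are not fully told apart. The 3p strands were listed as 8 sequences, of which 2 are versions of the strand let-7a-1-3p. Of the 8, 7 had lower values on HFD in vWAT-Exos and 7 had higher values in BAT-Exos, with median responses of -0.69 and 0.34. Over all 320, 153 were lower in vWAT-Exos and 167 higher in BAT-Exos. With let-7a-1-3p taken once, the 3p counts were 6 and 6 of 7 strands. The differences ran from 0.61 to 1.65 for the 5p sequences and from -1.91 to 0.16 for the 3p sequences and did not overlap. They were above 0 in 9 of 9 and 1 of 8, also under either scaling, and in 154 of all 320 as deposited.

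The change was small in each depot, and only let-7g-5p and let-7e-5p passed 2-fold among the 9 5p strands, both downward in BAT-Exos, where 14.7% of the 320 did. The 5p strands summed to 200544 (LFD) and 268919 (HFD) in vWAT-Exos, and to 158084 (LFD) and 106563 (HFD) in BAT-Exos. The 3p strands summed to 7124 (LFD) and 4491 (HFD) in vWAT-Exos, and to 20185 (LFD) and 23709.6 (HFD) in BAT-Exos. let-7f-1-3p went from 135 to 75.8 in vWAT-Exos and from 216 to 373 in BAT-Exos. let-7d-3p, the most abundant of them, went from 3526 to 2093 in vWAT-Exos and from 10554 to 12289.8 in BAT-Exos, while let-7d-5p went from 9588 to 12523 in vWAT-Exos and from 6449.9 to 4116 in BAT-Exos.

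Strands of the same hairpin did not move together in general. Both strands reached 100 for 53 hairpins, and their differences had the same sign in 29, with a Pearson correlation of 0.38 and a Spearman correlation of 0.19 across hairpins. The median gap between the 2 strands was 0.74 on the log2 scale, and 32 gaps were under 1. miR-27a-5p went from 354 to 495 in vWAT-Exos and from 169 to 36.7 in BAT-Exos, a difference of 2.66, while miR-27a-3p, a brake on fat cell formation, went from 30572 to 36563 in vWAT-Exos and from 43257 to 62105 in BAT-Exos, a difference of -0.26. That pair had the widest gap, 2.92. The strands of miR-144 had a gap of 0.15 between differences of 3.10 and 3.25, and 3 hairpins had narrower gaps, the narrowest being 0.0084 for miR-148a.

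**Figure D3:**
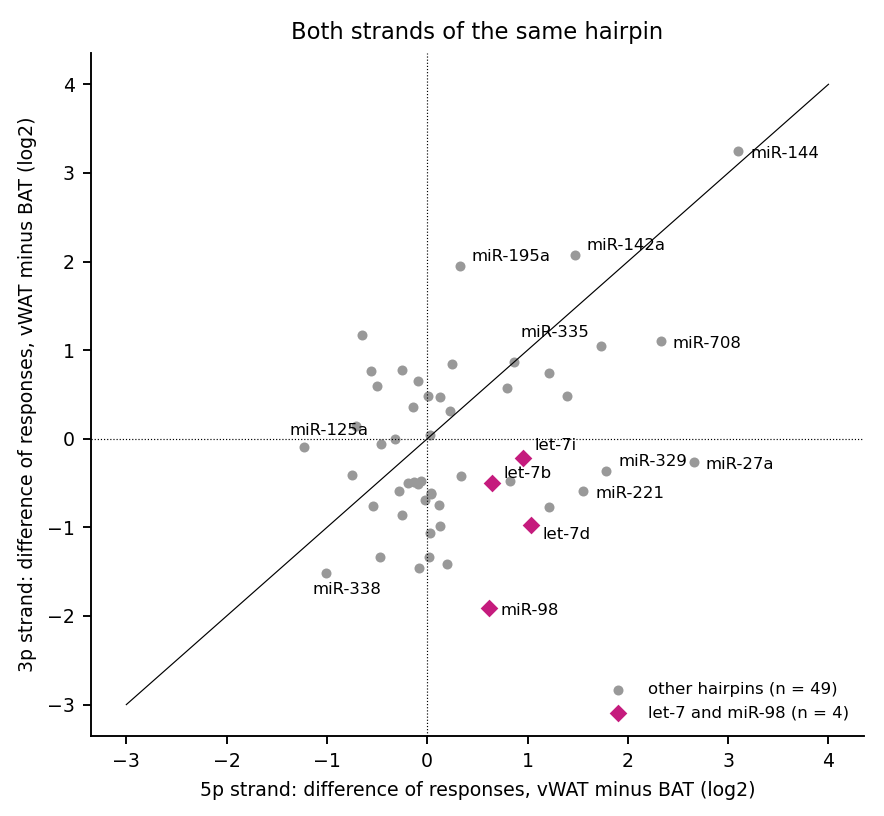
Difference of diet responses (vWAT-Exos minus BAT-Exos, log2) of the 5p strand (x axis) and the 3p strand (y axis) for 53 hairpins with both strands at 100 or more in a library. The diagonal marks equal differences. The hairpins of let-7b, let-7d, let-7i and miR-98 all lie to the right of 0 and below it, and miR-144 lies close to the diagonal at 3.10 and 3.25.

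Strands that share a seed were set side by side as well. Of 27 groups with the same seed and at least 2 strands, 79 strands in all, 20 had differences of one sign, with a strand listed in 2 versions taken once. Many groups are pairs. Over all 320 the differences split into 154 above 0 and 166 below, so a pair often agrees in sign in any case. Besides let-7 and the 2 miR-200 seeds, the 4 miR-181 strands with the seed ACAUUCA, which tune signalling in lymphocytes and vessels, had differences from 0.90 to 1.86. miR-181a-5p went from 9102 to 14411 in vWAT-Exos and from 3923 to 2078 in BAT-Exos. The 4 strands with the seed UAUACAA, all let-7 or miR-98 3p strands and one of them, let-7a-1-3p, listed in 2 versions, had differences from -1.91 to -0.50. Members of a seed group often share sequence beyond the seed or a cluster, so they are not independent of each other.

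Neighbours in the genome were compared next. Of 22 clusters of precursors within 10000 bases of each other, which held 98 of the 320 sequences, 9 had differences of one sign. Several clusters are pairs, where one sign says little. Both miR-200 clusters were among the 9, as was the pair miR-296-3p and miR-298-5p near the imprinted Gnas locus. The miR-144/451a cluster was counted too, with miR-451a at only 0.17. miR-298-5p went from 328 to 223 in vWAT-Exos and from 54.5 to 4.23 in BAT-Exos, and miR-296-3p went from 496 to 393 in vWAT-Exos and from 37.1 to 7.76 in BAT-Exos. The differences of miR-298-5p and miR-296-3p were 2.85 (1.60 to 4.10) and 1.79 (0.80 to 2.78).

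The imprinted Dlk1-Dio3 region, a maternally expressed array of miRNAs that spans 158 kb here, showed responses that varied along the array. Of 65 listed sequences 28 reached 100, with a median difference of -0.08. A difference of at least 2-fold was upward for 6 (21.4%, near the 18.4% of all 320) and downward for 1 (15.9% of all 320 were), and with libraries scaled to their totals it was upward for 4 and downward for 4. Of those 6 upward, 4 lay side by side, between 123 and 128 kb from the first member. These were miR-379-5p, miR-411-5p and miR-329-5p on the plus strand and miR-299b-3p on the minus strand. The other 2 of the 6 were miR-337-5p (1.28) at the start of the array and miR-341-3p (1.09). With libraries scaled to their totals, miR-299b-3p and miR-341-3p fell short of 2-fold. miR-379-5p went from 596 to 1007 in vWAT-Exos and from 245 to 55.7 in BAT-Exos, a difference of 2.87 (2.47 to 3.28). miR-411-5p went from 602 to 704 in vWAT-Exos and from 289.7 to 39.5 in BAT-Exos, a difference of 3.07 (2.61 to 3.53).

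miR-329-5p, the last of the run, went from 179.8 to 187 in vWAT-Exos and from 138 to 40.9 in BAT-Exos. Its other strand miR-329-3p, from the same hairpin, went from 139 to 87.7 in vWAT-Exos and from 181 to 147 in BAT-Exos, a difference of -0.37. Next along, miR-494-3p was within 2-fold in both depots, and miR-543-3p had the opposite response described above. miR-127-3p, the most abundant member, went from 4287 to 4024 in vWAT-Exos and from 3942 to 2490.1 in BAT-Exos. The last 4 members, miR-409-5p, miR-409-3p, miR-369-3p and miR-410-3p, had differences between -0.99 and 0.12.

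**Figure D4:**
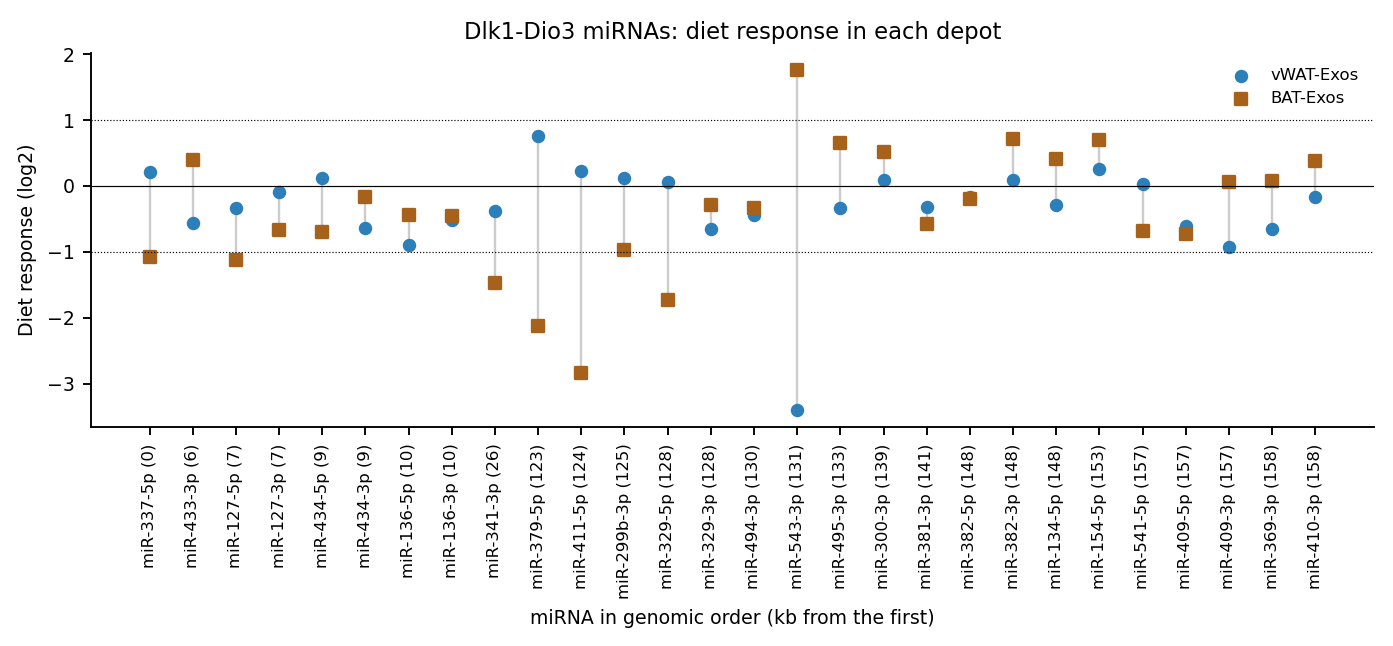
Diet response (log2) of the 28 miRNAs of the Dlk1-Dio3 region in vWAT-Exos (circles) and BAT-Exos (squares), in genomic order with the distance from the first member in kb, 1 library per group. Dotted lines mark 2-fold. The BAT-Exos points of miR-379-5p, miR-411-5p and miR-329-5p drop below the lower line while their vWAT-Exos points stay above 0, and miR-543-3p has its points far apart in the other direction.

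The 7 brown fat miRNAs, of which miR-193b and miR-365 promote brown fat formation, had median responses of 0.31 in vWAT-Exos and 0.46 in BAT-Exos and a median difference of 0.01, which turned to -0.07 when libraries were scaled to their totals. In vWAT-Exos 1 of the 7, miR-193a-3p, was at least 2-fold up (5.31% of the 320 were), from 327 to 761 with a response of 1.22, and 1, miR-455-3p described above, was at least 2-fold down (8.12% were), with a response of -1.15 and a difference of -1.34. None was at 2-fold in BAT-Exos. miR-378a-3p itself had responses of 0.66 and -0.02, a difference of 0.68 (0.67 to 0.70). miR-193b-3p went from 768 to 1384 in vWAT-Exos and from 12951 to 18816 in BAT-Exos. The 5 adipogenic miRNAs had a median difference of 0.31, with none at 2-fold in either depot, and miR-26a-5p, at 46975 (LFD) and 49020.1 (HFD) in vWAT-Exos and 24497 (LFD) and 13184 (HFD) in BAT-Exos, had the highest, 0.96.

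The endothelial list and the miR-29 and miR-30 families had differences below 0, as had 166 of all 320 miRNAs. All 4 endothelial miRNAs had negative differences, with a median of -0.61, and miR-126a-3p, the main miRNA of vessel lining, went from 13606 to 10536 in vWAT-Exos and from 17511 to 28076 in BAT-Exos. All 8 members of the miR-29 and miR-30 families had negative differences that ran from -1.07 for miR-29b-3p to -0.09 for miR-30a-5p. The difference was at least 2-fold downward for 1 of the 4 and 1 of the 8, and for 15.9% of the 320. Under median-of-ratios scaling it was so for none of the 4 or the 8. Of 6 inflammation miRNAs, 5 had responses under 0 in each depot, and the median difference was 0.29. Over all 320, 153 responses in vWAT-Exos and 151 in BAT-Exos were under 0. miR-21a-5p was near level in vWAT-Exos, at -0.01, and under median-of-ratios scaling 2 of the 6 were above 0 there. miR-155-5p, induced in activated macrophages, went from 1493 to 962 in vWAT-Exos and from 249 to 127 in BAT-Exos. The single epididymal and testicular miRNA that reached 100, miR-34c-5p, went from 2541 to 1931 in vWAT-Exos and from 359 to 524 in BAT-Exos, and that list summed to 2747 and 2021 in vWAT-Exos.

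**Figure D5:**
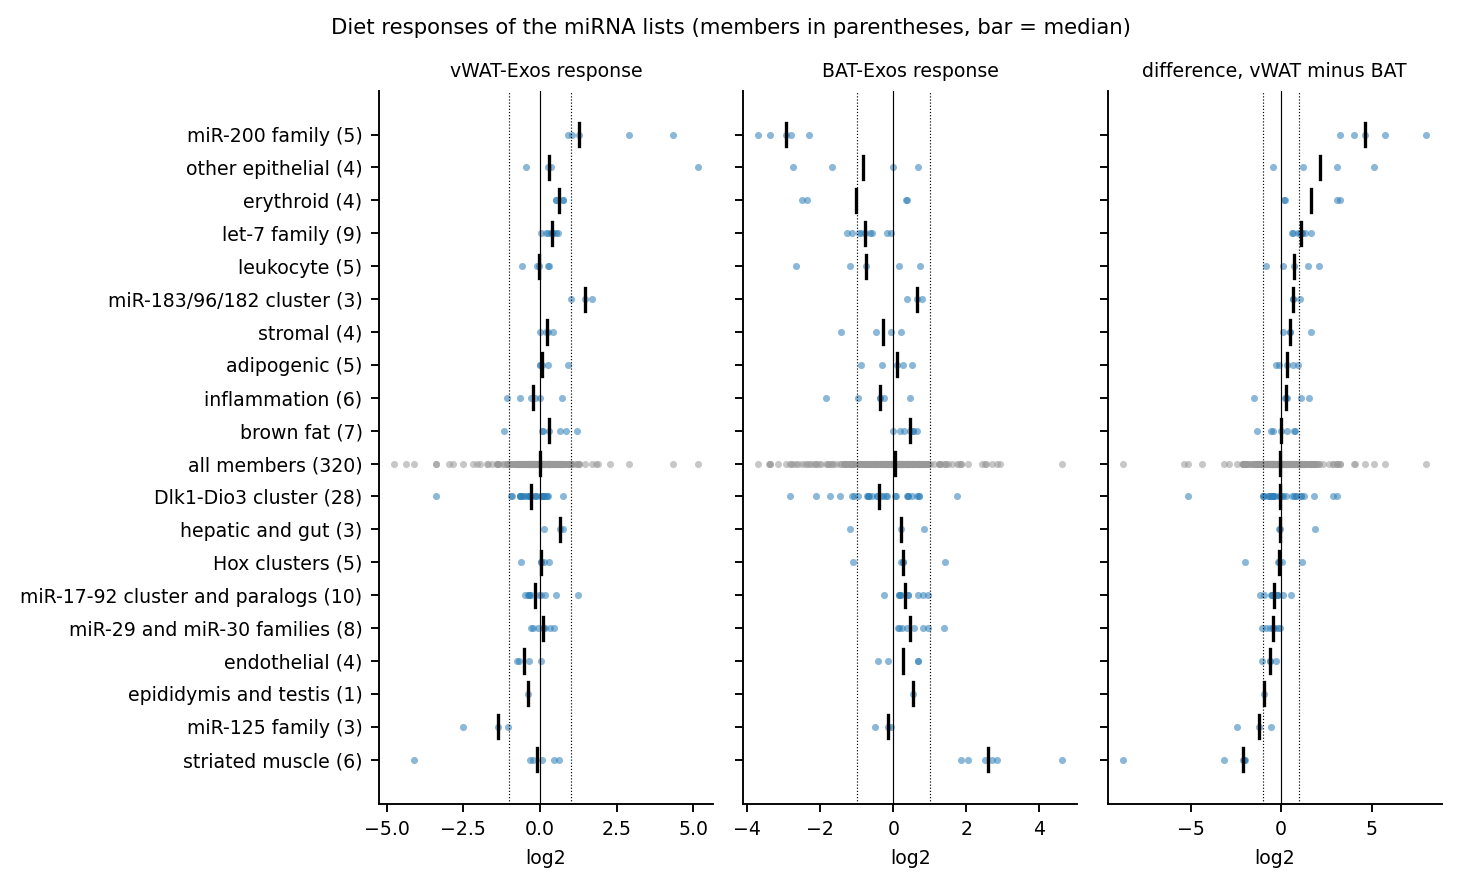
Diet responses in vWAT-Exos and BAT-Exos and their difference (log2) for the members of 19 miRNA lists and for all 320 miRNAs, ordered by the median difference. Each point is a miRNA, black bars are medians and dotted lines mark 2-fold. The miR-200 family stands at the top with a median difference of 4.63 and the striated muscle list at the bottom with -2.09, while all 320 had -0.05.

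Not every large difference came from a large response. For 29 miRNAs the difference reached 2-fold while neither depot did, upward for 15 and downward for 14. miR-181b-5p had the highest of these, with 1040.4 (LFD) and 2019.9 (HFD) in vWAT-Exos and 895 (LFD) and 477 (HFD) in BAT-Exos, a difference of 1.86 (1.66 to 2.06). miR-128-3p had the lowest, with 381 (LFD) and 232 (HFD) in vWAT-Exos and 1882 (LFD) and 3529.5 (HFD) in BAT-Exos, a difference of -1.62 (-1.96 to -1.28). Such miRNAs leaned opposite ways in the 2 depots without passing 2-fold in either.

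The share of large differences depended on the level of the miRNA. The difference reached 2-fold for 48.3% of the 87 miRNAs whose highest value lay between 100 and 300, and for 41.7% of the 60 between 300 and 1000. It did so for 27.0% of the 111 between 1000 and 10000 and for 21.0% of the 62 above that. Over the same steps the SD of the difference was 1.90, 1.69, 1.21 and 0.84. Just inside the minimum of 100 lay miR-188-5p, with a highest value of 102 and a difference of -2.15, and just outside lay miR-337-3p, with 99.5 and -0.76. Just past a 2-fold difference lay miR-598-3p (1.01), and just short of it miR-7a-5p (0.99) and miR-409-3p (-0.99).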

How the data were processed

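Small RNA of exosomes was sequenced as single-end reads on an Illumina HiSeq 2500 after TruSeq small RNA preparation, in 4 libraries, 1 per combination of diet and depot. The authors trimmed and filtered the reads with ACGT101-miR, and the deposited table gives a normalized signal per sequence and library under the name of normalized counts. Its normalization was not stated in the labels or methods. The labels name GRCh38, a human build. It was analysed as a signal, with no count model.

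Of 1640 entries, 773 carried a mouse name, and each sequence was taken once. The diet response was log2((HFD + 1)/(LFD + 1)), with a pseudocount of 1. Classes used a fold of 2 and a minimum of 100. The value of 1 read was inferred from the read numbers in the names of predicted entries, and rested on 2 of 5 entries in LFD vWAT-Exos, 3 of 3 in HFD vWAT-Exos, 127 of 146 in LFD BAT-Exos and 100 of 112 in HFD BAT-Exos, so reads are approximate, most of all in vWAT-Exos. Mature sequences and positions come from RefSeq (GRCm38.p6), and overlapping genes from the GENCODE annotation of GRCm38. Names listed for 1 sequence cannot be told apart by their values.

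The miRNAs, the 19 lists and the rules were chosen with earlier results of these data known. Named miRNAs were the 10 largest differences each way, all opposite responses, the leading shared and limited responses, the 10 most abundant, those the paper names, the 4 most abundant of each list, and their other strands, neighbours and seed partners. A few named beyond these were chosen after their values were seen: those just past a threshold, miR-155-5p, miR-33-5p, miR-29b-3p, miR-181b-5p and miR-128-3p. Alternatives changed the pseudocount, minimum, fold, scaling, entries, counting error and the reading of 0. The code that assigns the classes was tested on simulated data. Computations ran in Python 3.11.15 (pandas 2.3.3, numpy 2.4.6, scipy 1.17.1), and figures were drawn in matplotlib 3.10.9.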

Additional observations from a re-analysis of the deposited data

Results flagged for a closer look

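With a listed 0 taken as 0, the HFD value of 7 miRNAs moved at least 2-fold one way in vWAT-Exos and at least 2-fold the other way in BAT-Exos. The difference of their responses (log2, vWAT-Exos minus BAT-Exos) was 8.02 for miR-141-3p, 5.71 for miR-200c-3p, 4.00 for miR-200b-3p, 4.63 for miR-200a-3p, -8.75 for miR-208b-3p, -5.37 for miR-129-1-3p and -5.15 for miR-543-3p. With 1 library per group, none of these differences was tested. The 4 positive ones have no value of 0, and the 3 negative ones have a 0 in HFD vWAT-Exos. With that 0 at its bound of 5 approximate reads, none of these 3 was an opposite response. For miR-129-1-3p no fold can be given in vWAT-Exos. The minimum for inclusion fixed the higher HFD value of miR-208b-3p and miR-543-3p in BAT-Exos and of miR-141-3p in vWAT-Exos.

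Sequences without a mouse name lie outside the comparisons above, and 64 of 785 reached 100 in at least 1 library, 25 of them predicted. By the same rules 5 of these 64 had opposite responses, 3 shared responses, 6 responses limited to vWAT-Exos and 11 limited to BAT-Exos, with a median difference of 0.22.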

How the results depend on the processing

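No paired analysis was possible because each group has 1 library. The 7 opposite, 8 shared, 20 vWAT-limited and 49 BAT-limited responses became 14, 31, 65 and 97 with a minimum of 10 in at least 1 library (512 miRNAs), 2, 2, 6 and 20 with a minimum of 1000 (173 miRNAs), and 1, 1, 7 and 18 with 100 in all 4 libraries (213 miRNAs). With a fold of 1.5 there were 23 opposite, 25 shared and 48 vWAT-limited responses, and with a fold of 3 there were 4 shared, 7 vWAT-limited and 25 BAT-limited. Shared responses fell to 4 with a pseudocount of 10 and to 5 with annotated names only. With counting-error intervals away from 0, 4 opposite and 5 shared responses were left, and the same numbers, 4 and 5, with a 0 set to 5 approximate reads, an alternative chosen after seeing the data. The differences of mir-3470a-p3, miR-709 and miR-3470a reversed to 1.01, 0.73 and 1.07 with a pseudocount of 10 and to 2.33, 2.37 and 2.47 with a 0 set to 5 approximate reads. The cause was not tested, apart from the 0 in HFD vWAT-Exos that these 3 share. Scaling to totals gave 5 opposite and 25 vWAT-limited responses, median-of-ratios scaling gave 7 and 20. Under these 2 scalings 98 and 99 of 101 named miRNAs kept the sign of their difference, and 18 and 19 of 19 lists did, the exception being the brown fat list at -0.07. Depth limits vWAT-Exos most, where 5 approximate reads are a value of 11.8 on HFD.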
